A study of Mus musculus with 20 samples.

Results

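The genes described here encode the parts of the epithelial anchor to the basement membrane: 2 chains of laminin-332 (Lama3 and Lamb3), the laminin receptor integrin (Itga6 and Itgb4), the transmembrane collagen XVII (Col17a1), the linkers to keratin filaments (Dst and Plec) and the anchoring fibril collagen VII (Col7a1). These 8 genes were chosen by name, out of 21887 protein-coding genes of the RefSeq table of GRCm38.p6 (mm10 derives from GRCm38). For each gene, peaks of the 3 histone marks were taken over the gene and 1 kb at its ends, H3K27ac peaks and sites of the transcription factor HEB up to 100 kb away. The chromatin came from the mammary epithelial line Comma-Dβ, of mouse origin, at passage 28, and was immunoprecipitated and sequenced. The 20 samples form 5 groups of 4 labelled replicates, 1 group for each of the antibodies against HEB, H3K27ac, H3K4me3 or H3K27me3 and 1 of input chromatin. All groups came from the same untreated line, grown in DMEM/F12 with insulin (0.125 IU/mL), mouse epidermal growth factor (5 ng/mL), HEPES (10 mM) and 2% serum, so nothing here separates a cell state or a treatment. The files used were 4 peak lists, 1 per antibody and already combined over replicates, so no value below has a replicate error, no test between samples was possible and the order of 2 close values cannot be judged.

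Hemidesmosomes are junctions on the basal face of stratified and glandular epithelia. Integrin α6β4 and collagen XVII cross the plasma membrane and bind laminin-332 outside the cell, and plectin and the epithelial form of dystonin join them to keratin filaments inside. Anchoring fibrils of collagen VII tie the basement membrane to the matrix below. In the mammary gland this junction sits where basal, myoepithelial cells touch the basement membrane. Of the histone marks, H3K4me3 is typical of promoters, H3K27ac of promoters and enhancers in use, and H3K27me3, written by Polycomb, of repressed genes. HEB, the product of Tcf12, is a basic helix-loop-helix E protein that binds E-boxes.

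The epithelial genes Cdh1, Epcam, Krt8 and Krt18 all had H3K27ac and H3K4me3 near a start, and so did the basal keratin genes Krt5 and Krt14. Cdh1, Epcam and Krt5 also had H3K27me3 there, as did 28.9% of all protein-coding genes. That mark covered 88.0% of Krt5 taken with 1 kb at its ends. Trp63, the basal regulator p63, has no start in the promoter table, so its 2 gene ends were used. None of the marks lay within 1 kb of them. Over the gene lay 16 H3K27ac peaks and 1 H3K4me3 peak of 3215 bp with a fold of 4.31. Of 15 genes that mark immune, endothelial, neuronal, muscle and adipocyte cells, 1 (Pecam1, an endothelial adhesion gene) had H3K27ac near a start and 3 (Kdr, Snap25 and Syt1) had H3K4me3 there, each of these 3 with H3K27me3. In all, H3K27me3 lay near a start at 2 of 3 immune, 1 of 3 endothelial, 3 of 3 neuronal, 3 of 3 muscle and 2 of 3 adipocyte genes. Near a start, both active marks thus lay at 4 of 4 epithelial genes and 2 of 3 basal genes. Among all protein-coding genes, 52.6% had H3K27ac and 57.1% had H3K4me3 near a start.

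Active marks lay on all 8 genes, and H3K27me3 on 3 of them. H3K27ac peaks lay over 8 of 8 genes, against 63.2% of all protein-coding genes, and H3K4me3 peaks over 8 of 8, against 61.2%. These genes are long, and a longer gene has more room for a peak: among the 7283 genes at least as long as the shortest of them, Col7a1 at 31.3 kb, the shares were 81.8% and 76.8%. H3K27me3 lay over 3 of 8 genes (Lama3, Col17a1 and Dst), against 37.5% of all genes and 44.2% of the long ones, a share near the background. Within 1 kb of a start, H3K27ac was found at 7 of 8 genes (52.6% of all genes and 61.4% of the long ones), H3K4me3 at 8 of 8 (57.1% and 70.5%) and H3K27me3 at 1 of 8, Col17a1 (28.9% and 31.3%). When 50% of a peak had to lie in the window, H3K27ac was found at 4 of 8. A wide peak can fail that rule by its width alone. The share of all genes under it was not counted, so the 4 cannot be set beside 52.6% or 61.4%. A start here is the start listed in the RefSeq promoter table for Lamb3, Col17a1, Col7a1 and Dst, and either end of the gene for Lama3, Itga6, Itgb4 and Plec. The H3K4me3 peak so counted for Plec lay beyond the gene and covered an end of its neighbour Parp10. With either gene end for every gene, H3K27me3 was found at Dst and Col17a1 (32.3% of all genes). No H3K27me3 peak over the 8 genes reached a −log10 q of 5, which 19.5% of all protein-coding genes and 25.7% of the long ones had, and their 5 peaks had folds of 1.57 to 2.04.

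**Figure D1:**
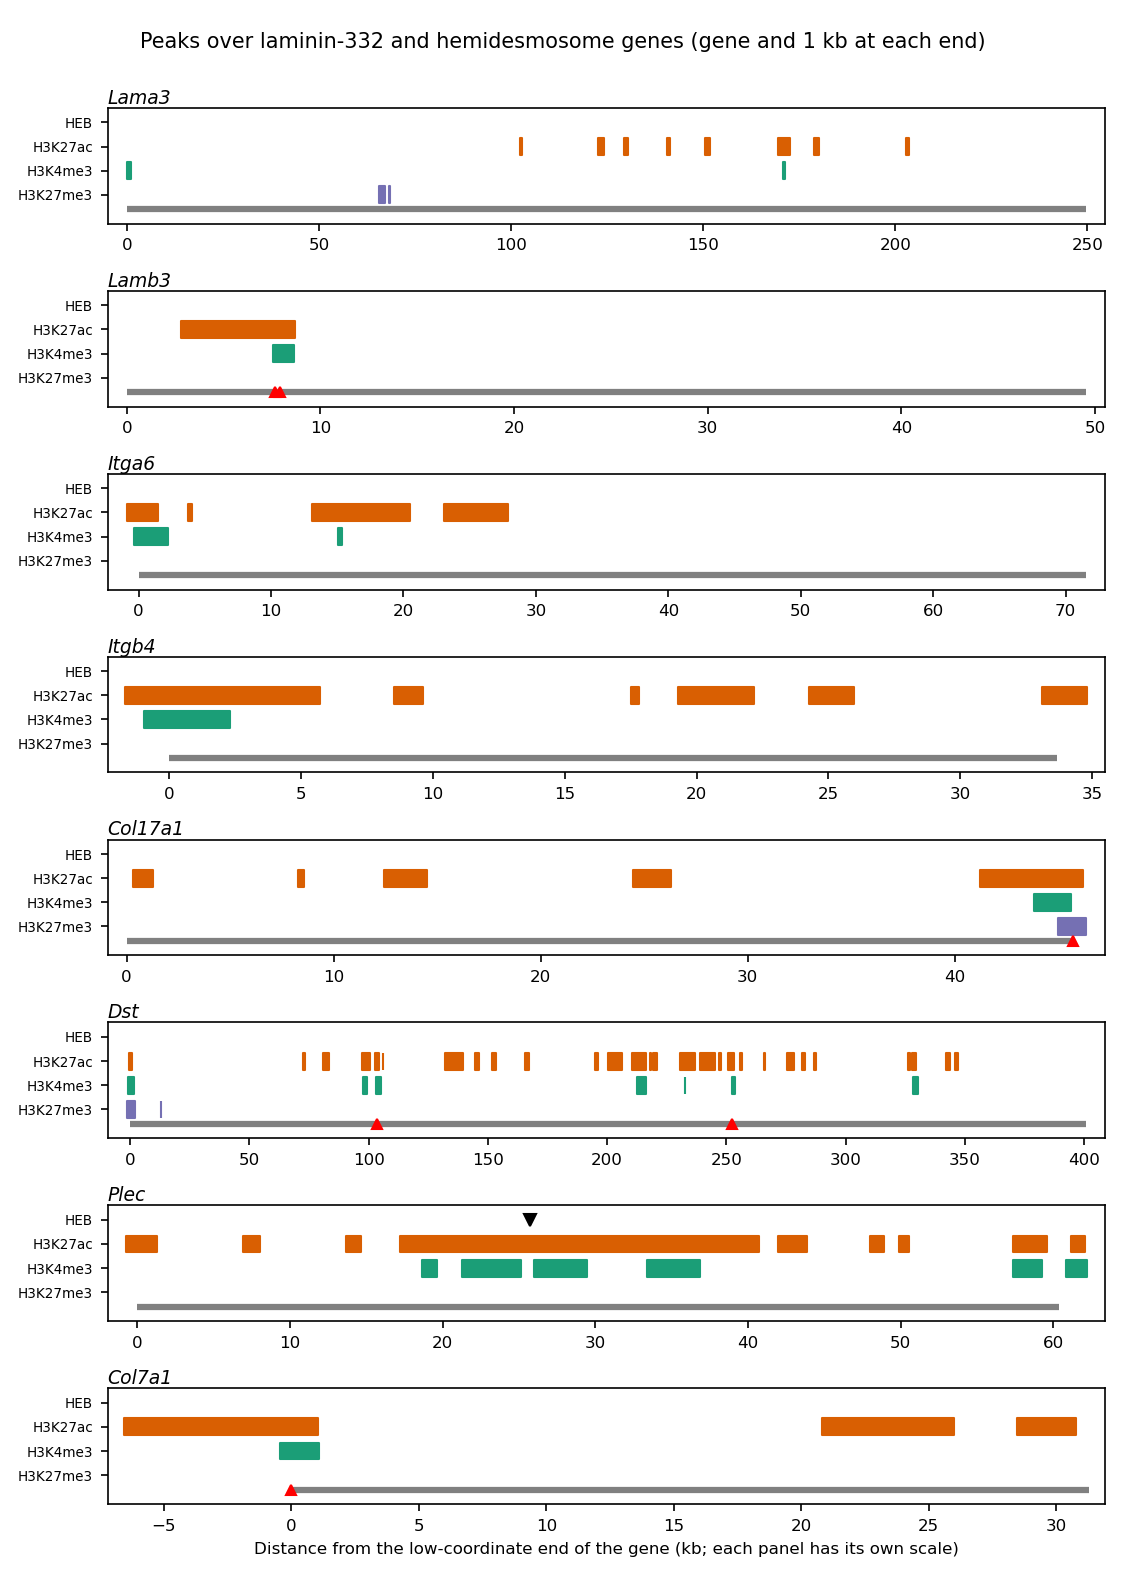
Peaks of each mark (coloured bars) and HEB sites (black triangles) along the 8 genes, with distance in kb from the low-coordinate end of the gene on the x axis, the gene as a grey line and listed starts as red triangles. All genes carry orange H3K27ac and green H3K4me3, and Lama3 alone has no H3K27ac at the end that holds its H3K4me3.

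The genes differed from each other in strength. The deposited fold enrichment of a peak is the authors' value, read here as a ratio of ChIP over control because the lists have the broadPeak layout. Ordered by their highest H3K27ac fold, the genes were Plec (9.41), Itgb4 (5.95), Dst (4.86), Col7a1 (4.35), Itga6 (4.17), Col17a1 (3.90), Lamb3 (3.83) and Lama3 (2.46). The middle 5, from Dst to Lamb3, lay within about 1 unit of fold, and Plec and Lama3 stood at the ends. The median over the 8 genes was 4.26, against 2.97 over all protein-coding genes and 3.85 over the long ones, where a gene with no peak counted as 0. For H3K4me3 the order was another. The integrin genes Itgb4 (21.6) and Itga6 (19.3) came first, then the linkers Dst (15.2) and Plec (14.3), then Col7a1 (10.6), Lamb3 (6.41), Lama3 (6.05) and Col17a1 (4.05). The median of all 17162 H3K4me3 peaks was 12.9, so the 2 integrin chains and the 2 linkers lay above it and the laminin and collagen genes below it. A peak above that median lay over 43.8% of all protein-coding genes and over 52.9% of the long ones, against 4 of these 8. Near a start such a peak was found at 3 (Itgb4, Itga6 and Dst), where the shares were 41.5% and 49.4%.

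**Figure D2:**
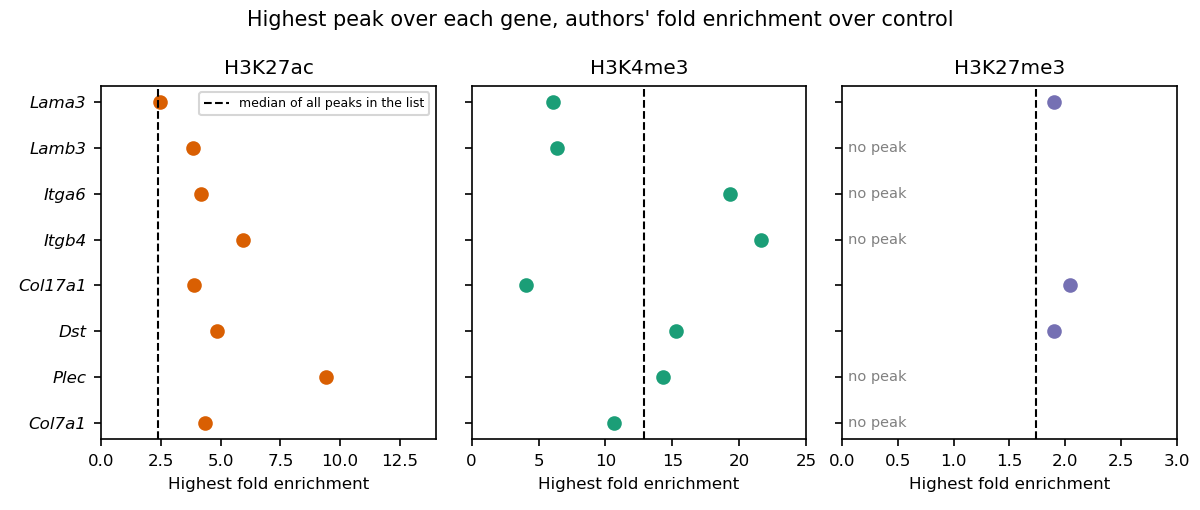
Highest fold enrichment (x axis, authors' ratio over control) of any peak over each gene, for each mark, with the median of all peaks of that list as a dashed line. For H3K4me3 the integrin and linker genes lie right of the line at 12.9, and Lama3, Lamb3, Col17a1 and Col7a1 left of it.

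How much of each gene was marked also varied. H3K27ac covered 53.7% of Plec, 40.0% of Itgb4, 28.6% of Col7a1, 21.2% of Col17a1, 20.3% of Itga6, 16.0% of Dst, 11.4% of Lamb3 and 4.09% of Lama3, each gene taken with 1 kb at its ends. The median was 20.8%, against 4.53% over all protein-coding genes and 4.65% over the long ones. The widest H3K27ac peak was 4.96 kb or more in 7 of the 8 genes and thereby wider than 93.4% of the list, and it was 2.93 kb in Lama3. In all, 64 H3K27ac peaks lay over the 8 genes and 17 of them overlapped H3K4me3 (26.6%, against 22.0% of the whole list). The 17 with H3K4me3 had a median fold of 3.46 and a median width of 3230 bp, and the 47 without it 2.15 and 1399 bp. In the whole list these medians were 4.16 and 2121 bp with H3K4me3 and 2.19 and 1134 bp without it. Of the 21 H3K4me3 peaks over the genes, 20 overlapped H3K27ac (80.7% of the whole list), and the exception was the peak at the low end of Lama3.

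**Figure D3:**
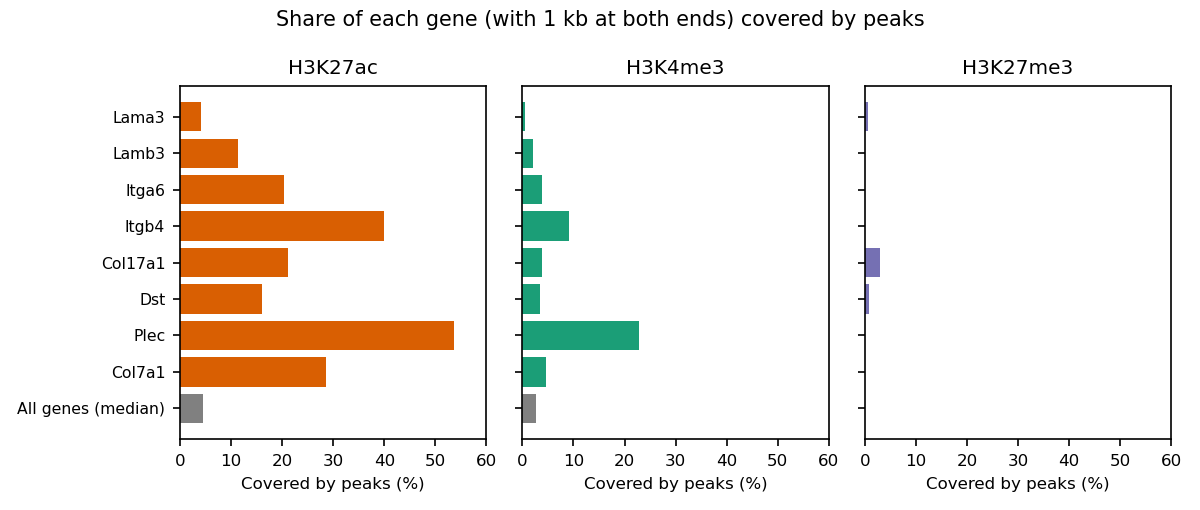
Share of each gene with 1 kb at both ends that peaks of a mark cover (x axis, %), with the median over all protein-coding genes in grey. Plec (53.7%) and Itgb4 (40.0%) have the longest H3K27ac bars, and Lama3 (4.09%) lies beside the median gene (4.53%).

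Peaks of H3K4me3 and H3K27ac lie within 1 kb of each of the 6 listed starts, and HEB binds E-boxes. The second listed start of Lamb3 is not shown. For the other 5, the 250 bases before the start are shown. They come from RefSeq with GRCm38.p6 coordinates, read 5′ to 3′ towards the start, and capitals mark the E-box hexamer CANNTG, which reads the same on both strands.
Lamb3, the first listed start, chr1:193301744-193301993, plus strand: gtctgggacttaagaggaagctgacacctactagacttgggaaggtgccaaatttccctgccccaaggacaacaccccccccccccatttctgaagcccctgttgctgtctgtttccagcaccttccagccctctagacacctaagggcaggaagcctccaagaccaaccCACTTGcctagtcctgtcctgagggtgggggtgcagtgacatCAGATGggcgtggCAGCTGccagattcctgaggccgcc
Col17a1, chr19:47692043-47692292, minus strand: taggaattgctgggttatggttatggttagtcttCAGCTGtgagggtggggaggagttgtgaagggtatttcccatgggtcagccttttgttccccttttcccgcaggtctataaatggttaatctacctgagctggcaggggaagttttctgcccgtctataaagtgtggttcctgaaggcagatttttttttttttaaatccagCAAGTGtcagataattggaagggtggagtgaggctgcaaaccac
Col7a1, chr9:108953336-108953585, plus strand: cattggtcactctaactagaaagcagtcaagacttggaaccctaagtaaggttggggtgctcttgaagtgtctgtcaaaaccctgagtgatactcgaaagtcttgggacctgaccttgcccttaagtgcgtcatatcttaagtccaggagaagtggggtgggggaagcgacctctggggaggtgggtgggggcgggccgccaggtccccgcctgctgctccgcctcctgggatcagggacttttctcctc
Dst, the first listed start, chr1:34011345-34011594, plus strand: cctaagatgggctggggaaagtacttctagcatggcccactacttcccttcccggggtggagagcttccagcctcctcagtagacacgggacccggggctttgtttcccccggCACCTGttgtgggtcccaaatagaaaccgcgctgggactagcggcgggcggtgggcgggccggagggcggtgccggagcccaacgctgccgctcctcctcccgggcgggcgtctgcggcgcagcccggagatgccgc
Dst, the second listed start, chr1:34160010-34160259, plus strand: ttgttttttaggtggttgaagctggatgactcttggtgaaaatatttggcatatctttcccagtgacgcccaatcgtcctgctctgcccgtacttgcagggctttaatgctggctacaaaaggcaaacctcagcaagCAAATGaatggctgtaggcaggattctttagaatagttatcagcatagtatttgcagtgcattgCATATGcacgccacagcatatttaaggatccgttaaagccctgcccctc
The promoter table listed 6 starts for 4 of the 8 genes, the ones above and a second start of Lamb3. An E-box was found before 5 of the 6, against 66.2% of 32851 listed promoters, and only the Col7a1 window held none. The form CAGCTG, which CANNTG includes, stood before the first Lamb3 start, 25 bases away, and before Col17a1, 216 bases away (13.0% of all promoters). The form CAGGTG, or CACCTG on the other strand, stood before the first Dst start, 137 bases away, and the second Lamb3 start (17.2% of all promoters). No HEB site lay within 100 kb of any of these 4 genes. The windows differed in CpG content, a property of many broadly used promoters: 22 CpG pairs before the first Dst start, 7 before Col7a1, 5 before the second Dst start, and 2 before each of Col17a1 and the first Lamb3 start, where the median of all promoters was 6. The highest H3K4me3 fold within 1 kb of those starts was 13.7, 10.6, 3.43, 4.05 and 6.41, in the same order. The second Lamb3 start, left out of this series, had 3 CpG pairs and an H3K4me3 fold of 6.41. The series has 5 starts and the relation was not tested.

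Lama3 encodes the α3 chain of laminin-332 (chromosome 18, 12333417 to 12583013, 250 kb). It had the weakest acetylation of the 8 genes. An H3K4me3 peak of 969 bp with a fold of 6.05 lay 0.166 kb inside its low end, and no H3K27ac lay within 1 kb of either end. H3K4me3 without H3K27ac near a start was found at 7.64% of all protein-coding genes and 11.5% of the long ones. The 8 H3K27ac peaks over Lama3 lay between 102 and 204 kb from the low end and were weak, with folds of 2.01 to 2.46 beside a list median of 2.39. None reached a −log10 q of 5, a stricter threshold that H3K27ac peaks over 55.1% of all protein-coding genes, 71.3% of the long ones and each of the other 7 genes reached. A second, faint H3K4me3 peak (316 bp, fold 1.79) lay 171 kb from the low end, inside the widest of these H3K27ac peaks. Lama3 is known to have more than 1 promoter, and which transcript this peak belongs to was not tested. H3K27me3 was present as 2 small peaks, 65.7 to 68.5 kb from the low end, with folds of 1.90 and 1.73.

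Lamb3 encodes the β3 chain (chromosome 1, 193294353 to 193343878). A single H3K27ac peak of 5.86 kb with a fold of 3.83 lay 2.81 to 8.67 kb from its low end, and a single H3K4me3 peak of 1.06 kb with a fold of 6.41 lay inside it, at 7.56 to 8.62 kb. Both listed starts, 7.64 and 7.89 kb from the low end, fell in both peaks. No mark lay within 1 kb of either end of the annotated gene, so a window at the gene ends would have missed them. There was no H3K27me3.

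Itga6 and Itgb4 encode the chains of integrin α6β4, the laminin receptor of the hemidesmosome. Their H3K4me3 was the strongest of the 8 genes. At Itga6 (chromosome 2, 71786886 to 71858427) a 2.53 kb peak with a fold of 19.3 covered the low end together with an H3K27ac peak of 2.40 kb and a fold of 3.75. The strongest acetylation lay further in, as a 7.42 kb peak with a fold of 4.17 at 13.1 to 20.5 kb, which held a faint H3K4me3 peak (fold 2.10), and a 4.84 kb peak with a fold of 2.81 followed it. All H3K27ac over Itga6 lay within its first 27.9 kb, of 71.5 kb. At Itgb4 (chromosome 11, 115974725 to 116008412) H3K4me3 of 3.26 kb and a fold of 21.6 lay across the low end, inside an H3K27ac peak of 7.39 kb and a fold of 5.95. The other 5 H3K27ac peaks over Itgb4 had folds of 1.80 to 1.99, and the last of them covered the high end, which is 55 bp from an end of Galk1. Neither integrin gene had H3K27me3.

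Col17a1 encodes collagen XVII, the transmembrane collagen of the hemidesmosome (chromosome 19, 47646341 to 47692042, read from its high end). It was the only 1 of the 8 with all 3 marks near a start as defined above. That state was found at 4.04% of all protein-coding genes and 6.03% of the long ones. The low end of Dst also had all 3 marks within 1 kb. It was not counted because Dst has listed starts elsewhere, so the difference rests on that definition. The listed start of Col17a1 was covered by an H3K27ac peak of 4.96 kb (fold 3.46) and an H3K27me3 peak of 1.37 kb (fold 2.04). An H3K4me3 peak of 1.79 kb with a fold of 4.05 ended 95 bp inside the gene from that start. The H3K4me3 and H3K27me3 peaks shared 628 bp. Whether the marks sit on the same molecules or in different cells cannot be told apart in bulk chromatin. The −log10 q of the H3K27me3 peak was 4.54, below 5. The strongest acetylation over the gene was inside it, 12.4 to 14.5 kb from the low end, with a fold of 3.90. A far stronger H3K27ac peak lay outside, 4.38 kb before the start (chr19:47696423-47702182): it was 5.76 kb wide, had a fold of 9.66, above 99.3% of the list, and held no H3K4me3. No other protein-coding gene end was nearer to it than that of Col17a1.

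Dst encodes dystonin, the plakin whose epithelial form links the hemidesmosome to keratin (chromosome 1, 33907888 to 34308662). It is the longest of the genes at 401 kb and is known to be read from several promoters into neuronal, muscle and epithelial forms. It held 28 H3K27ac peaks and 7 H3K4me3 peaks. A count of 6 or more H3K4me3 peaks was found over 0.196% of all protein-coding genes and 0.590% of the long ones. Dst and Plec both had it, and so did Macf1, a plakin gene outside the 8 (6 peaks, highest fold 19.5). The 6 peaks of Plec include 1 that began 0.451 kb beyond its end. The strongest H3K4me3 of Dst (fold 15.2) lay at its low end. That end is 45 bp from an end of the neighbouring gene Bend6, which the peak also covered, so the share of either gene in it cannot be told apart. An H3K27me3 peak of 3.37 kb and a fold of 1.90 lay over the same end. The first listed start, 104 kb in, lay in H3K4me3 of 2.40 kb and a fold of 13.7, and a further peak with a fold of 12.1 lay 97.8 to 99.3 kb in. The second listed start, 252 kb in, lay in a weaker H3K4me3 peak with a fold of 3.43. Between 200 and 245 kb lay 4 H3K27ac peaks of 5.75 to 6.30 kb with folds of 4.00 to 4.86, among them the 3 strongest over the gene. An H3K4me3 peak of 3.53 kb with a fold of 8.42 lay there at 213 to 216 kb, and another of 2.09 kb and a fold of 5.95 lay at 328 to 330 kb. Neither was near a listed start.

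Plec encodes plectin, the cytolinker that joins integrin β4 to keratin (chromosome 15, 76170974 to 76231378). It carried the widest and strongest acetylation of the 8 genes. A single H3K27ac peak of 23.5 kb with a fold of 9.41 spanned 17.2 to 40.7 kb from the low end (chr15:76188192-76211699). Only 56 of the 61496 peaks in the list were wider, and its fold stood at the 99.2 percentile. Inside it lay 4 H3K4me3 peaks with folds of 2.32 to 14.3 that together covered 11.8 kb. Nearer the high end, 2 more H3K4me3 peaks had folds of 13.2 and 12.8. The outer of them (12.8) began 0.451 kb beyond the end of Plec and covered an end of Parp10, the neighbouring gene. It was the only H3K4me3 peak within 1 kb of an end of Plec, so the count of Plec near a start rests on it. Plectin is known for alternative first exons, and which of them these peaks belong to was not tested. There was no H3K27me3.

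Col7a1 encodes collagen VII, the protein of anchoring fibrils (chromosome 9, 108953586 to 108984875). Its listed start lay in an H3K4me3 peak of 1.53 kb with a fold of 10.6 and in an H3K27ac peak of 7.61 kb with a fold of 4.35, most of which lay before the gene. The other gene nearest to that start, Uqcrc1, ended 3.95 kb from it, within the reach of that H3K27ac peak. Over the far part of the gene lay 2 more H3K27ac peaks, of 5.17 kb (fold 4.01) and 2.32 kb (fold 2.96), both without H3K4me3. No H3K27me3 was found.

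Within 100 kb the 8 genes had 161 H3K27ac peaks, 63 over the genes themselves and 98 outside them (the count of 64 above includes 1 peak 0.773 kb beyond the end of Plec), and the nearest gene end was that of the gene itself for 67. Such a peak lay within 100 kb of 87.3% of all protein-coding genes and 94.9% of the long ones. The median was 18 peaks a gene, against 9 over all protein-coding genes and 10.0 over the long ones. Dst had 36, Plec 32, Lama3 23, Itgb4 22, Col17a1 and Itga6 14 each, Col7a1 12 and Lamb3 8. H3K27ac covered 44.8% of the Itgb4 window, more than in 99.7% of protein-coding genes, but 11 other genes lay in that window and a 31.6 kb peak reaching Sap30bp lay 2.69 kb below Itgb4. Itga6 had 1 other gene in reach, Pdk1, and its strongest peak was the one inside it (fold 4.17). The strongest peak near Lama3 (fold 10.3, 43.2 kb above the gene) was nearest to an end of Ttc39c, a gene that comes within 90 bp of Lama3. Near Plec, a 2.74 kb peak with a fold of 7.26 and no H3K4me3 lay 10.9 kb below the gene, and the end of Plec was the nearest gene end. The peaks outside Lamb3 included 1 of 3.47 kb with a fold of 6.30, 68.3 kb above the gene and nearest to the end of Camk1g. Which gene any of these peaks acts on was not tested.

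**Figure D4:**
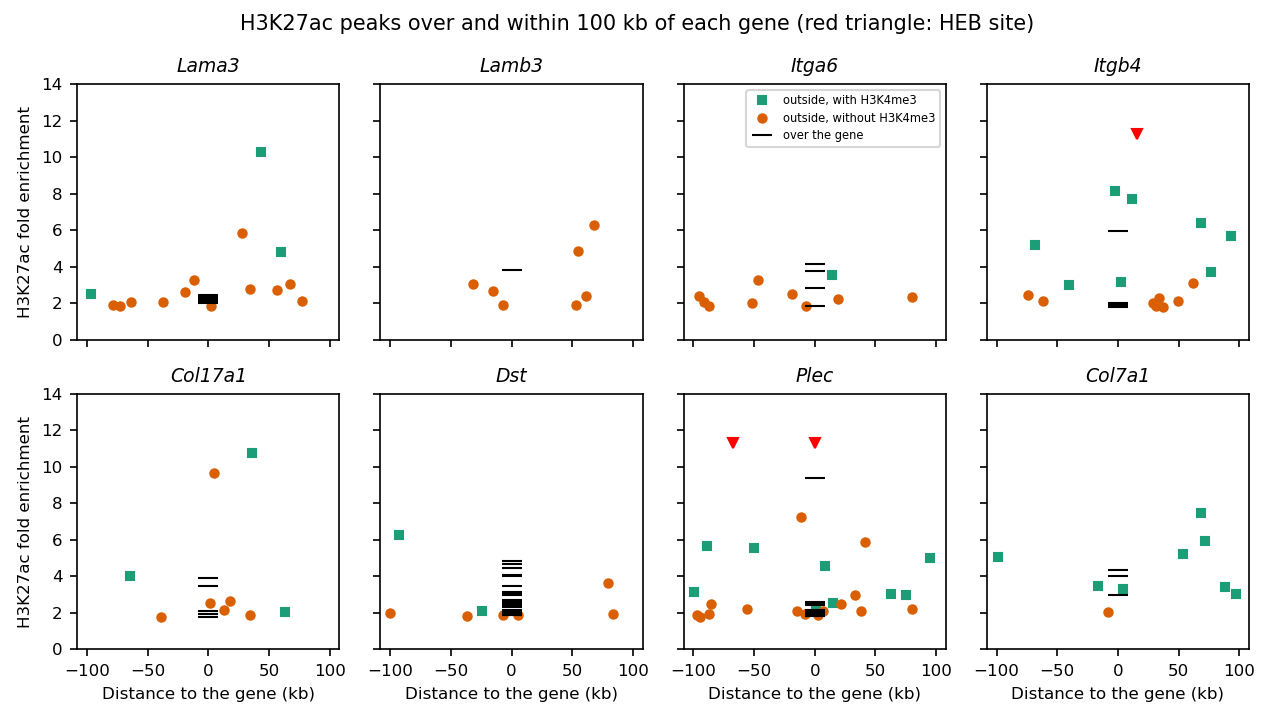
H3K27ac peaks by distance to the gene in kb (x axis, 0 for peaks over the gene, shown as black dashes) and fold enrichment (y axis), with squares for outside peaks that overlap H3K4me3 and circles for those that do not, and red triangles at the distance of HEB sites. Plec (9.41) and Itga6 (4.17) have their highest peak over the gene, and all the other genes have theirs outside it. That of Lama3 (10.3) is nearest to an end of Ttc39c, and that of Col17a1 (10.8) covers an end of Sfr1.

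HEB sites were found near 2 of the 8 genes, against 12.0% of all protein-coding genes and 11.9% of the long ones, and 3 of 956 sites were involved. The clearest lay inside Plec, in the 23.5 kb H3K27ac peak (chr15:76196276-76197156, 881 bp). Of the site, 706 bp lay in the 862 bp gap between 2 of the H3K4me3 peaks there and 175 bp on 1 of them, the peak with a fold of 9.55. Its nearest gene end was that of Plec, 25.3 kb away. A second site near Plec lay 67.1 kb below it in Eppk1 (chr15:76103512-76103906), the gene of the plakin epiplakin, with none of the 3 marks. In the whole HEB list 85.3% of sites lay on H3K27ac. Near Itgb4, 1 site lay 15.5 kb above the gene in H3f3b (chr11:116023870-116024965), a gene of the histone variant H3.3 that was closer to it than Itgb4. That site lay in an H3K27ac peak of 14.8 kb with a fold of 7.72 and shared 831 bp with an H3K4me3 peak of fold 39.4. The other 6 genes had no site within 100 kb, and their nearest sites were 234 kb (Dst), 332.2 kb (Col17a1), 494 kb (Lamb3), 1796 kb (Col7a1), 1845 kb (Itga6) and 4208 kb (Lama3) away.

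Other genes of basal anchorage were counted in the same way. A list of 18, with further laminin chains, integrins α3 and β1, the tetraspanin Cd151, kindlin-1 (Fermt1), basal keratins and plakins, had H3K27ac and H3K4me3 over 18 of 18. The shares over the gene were 63.2% and 61.2% of all protein-coding genes, and 81.8% and 76.8% of the long ones. Near a start the list had these 2 marks at 15 and 16 (52.6% and 57.1% of all protein-coding genes). H3K27me3 lay near a start at 6 of 18 (Krt5, Tll1, Fermt1, Macf1, Evpl and Ppl). It lay there at 28.9% of all protein-coding genes and at 1 of the 8. Tll1, Macf1 and Trp63 lacked H3K27ac near a start, and Macf1 and Trp63 lacked H3K4me3 there. Over the gene, Macf1 had 6 H3K4me3 peaks and Trp63 had 1. The median of the highest H3K27ac folds was 4.26 for the 8 genes and 6.07 for the list, and that of the highest H3K4me3 folds 12.4 and 13.9. The laminin chain genes Lamb1, Lamb2 and Lamc1, which are not part of laminin-332, had highest H3K4me3 folds over the gene of 24.3, 27.2 and 24.3. Among 8 integrin genes of epithelial adhesion, which share Itga6 and Itgb4 with the 8 genes, 8 had H3K4me3 and 6 had H3K27ac near a start and 1 (Itga2) had H3K27me3 there. Among 8 genes of collagens IV and XVIII, nidogens and perlecan, the counts were 7, 6 and 5. The shares over all protein-coding genes, in the same order, were 57.1%, 52.6% and 28.9%. The 5 genes with H3K27me3 are not separate loci. Col4a1 and Col4a2 overlap and had the same H3K27me3 peak, of 218 bp with a fold of 1.65. Col4a5 and Col4a6 are neighbours with the same highest H3K27me3 fold near a start (1.86). An HEB site lay within 100 kb of 3 of the 18, 2 of the 8 integrin genes and 4 of the 8 collagen, nidogen and perlecan genes. The share over all protein-coding genes was 12.0%. Col4a1 and Col4a2, whose windows overlap, are both among those 4. No test of these differences was run, since the genes were chosen with results of the same lists known.

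**Figure D5:**
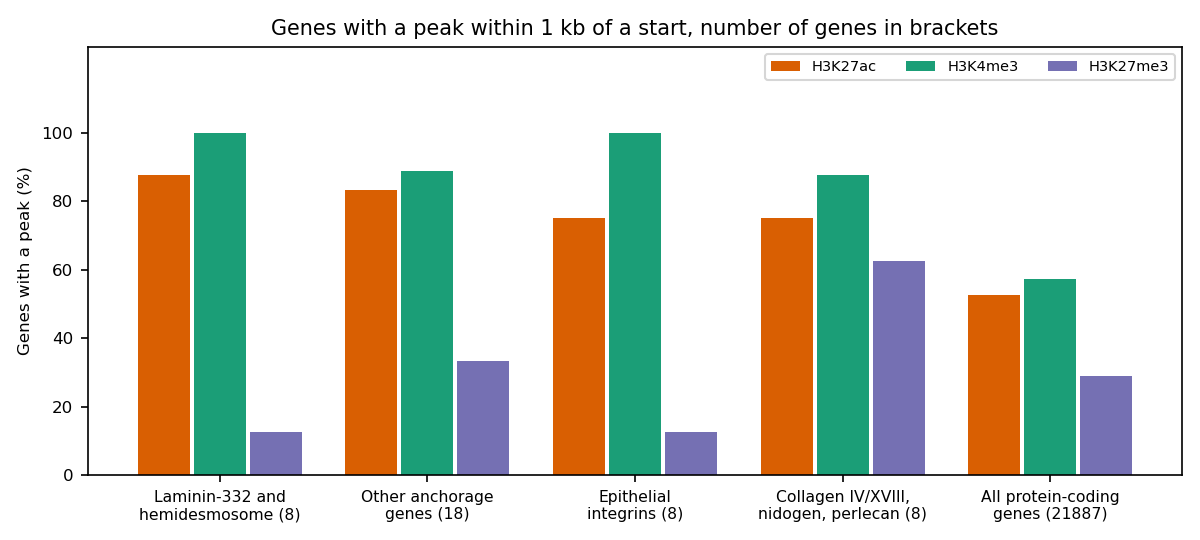
Share of genes (y axis, %) with a peak of each mark within 1 kb of a start, for the 8 laminin-332 and hemidesmosome genes, the compared gene groups and all protein-coding genes, with the number of genes in brackets. H3K27me3 stands at 1 of 8 in the first group and at 5 of 8 in the collagen IV and XVIII, nidogen and perlecan group. It stands at 28.9% of all protein-coding genes. Col4a1 and Col4a2 overlap, and 1 H3K27me3 peak is counted for both.

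The genes most like the median of the 8 were sought over 6 percentiles among all protein-coding genes, the covered share and the highest fold of the 3 marks. The nearest 5 were Ern1 (Euclidean distance 2.38 percentile points), Plekhh1 (2.66), Tnc (4.51), Tmem154 (5.94) and Mras (6.54). Ern1 had 10 H3K27ac peaks up to a fold of 4.12 and 1 H3K4me3 peak with a fold of 13.4, without H3K27me3. Of the 8 genes themselves, Col7a1 (7.48), Itga6 (12.7) and Lamb3 (18.4) lay nearest to their median, and Lama3 (68.1), Col17a1 (60.6) and Dst (54.4) farthest, these last being the 3 with H3K27me3. Since the median gene of the 8 had no H3K27me3 peak and 2 of the 6 percentiles are of that mark, a gene with such a peak lies far from the median by construction. The likeness covers 3 marks in 1 cell line.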

How the data were processed

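ChIP-seq of Comma-Dβ cells was deposited as 4 peak lists in mm10, which the submitters' processing notes name together with SAMtools, without a version. The aligner, the caller, the control and the way replicates of the histone marks were combined are, for these lists, not given in the sources used here; read depth per sample is unknown. The deposited HEB list, named by the authors a replicate consensus, holds positions only. The histone lists have the broadPeak layout: from it, the deposited fold enrichment is taken as a ratio over control, and the deposited −log10 q of each peak is the authors' own, as is a deposited score, which was not used. Genes came from the RefSeq table of GRCm38.p6; listed starts came from its promoter table (17492 of 21887 protein-coding genes, 4 of the 8), and elsewhere both gene ends served. Overlap meant 1 bp or more, within 1 kb for marks and 100 kb for H3K27ac and HEB. Interval counts (Python 3.11.15, pandas 2.3.3) were checked on simulated peaks. The design named all 8 genes, the genes nearest to HEB sites, list genes unlike their list's majority, and the 5 genes most alike. The members and lists were chosen with earlier results of these data known, and no test was run. The background of long genes, CpG counts and the peaks singled out were chosen after values were seen.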

Additional observations from a re-analysis of the deposited data

How the results depend on the processing

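Of 55 alternative values for 16 results, 33 stayed within 1.5 times the value reported. With only peaks of −log10 q of 5 or more, H3K27me3 lay over 0 genes and near a start at 0; H3K27ac peaks within 100 kb numbered 75, and those more than 1 kb from both gene ends 13 over Dst (27 with all peaks), 1 over Plec (6) and 0 over Lama3 (8), with 0 internal H3K4me3 peaks over Lama3 (1). With only peaks above their list's median fold, H3K4me3 lay over 4 genes and near a start at 3; H3K27ac peaks within 100 kb numbered 86, internal H3K27ac peaks 14 over Dst, 3 over Plec and 1 over Lama3, and internal H3K4me3 peaks 1 over Dst (6), 2 over Plec (5) and 0 over Lama3. When at least 50% of a peak had to lie within the window, 4 genes had H3K27ac near a start, and the share of all genes was not counted. With gene ends in place of listed starts, an alternative chosen after seeing the data, 2 genes had H3K27me3 there, Dst beside Col17a1. A window of 200 kb held 270 H3K27ac peaks; of the 161 within 100 kb, 67 had the gene's own end as nearest. By nearest gene end 1 gene, Plec, had an HEB site, and by midpoint 1 site lay on H3K4me3, not 2. The stricter thresholds leave fewer peaks by construction; no other cause was tested. No paired analysis was possible because each list is already combined over the replicates, and for the same reason no replicate could be left out.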
